A study of Mus musculus with 18 samples.

Results

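The genes described here are 10 components and readouts of fibroblast growth factor (FGF) signalling at the tips of the branching lung, read from 3 tables of whole-lung RNA-seq. They were chosen by symbol: the ligands Fgf10 and Fgf9, the receptor Fgfr2, the FGF-induced transcription factors Etv4 and Etv5, the feedback inhibitors Spry1, Spry2, Spry4 and Dusp6, and the distal tip transcription factor Sox9. All 10 were found among the 23420 rows of each table, and all 10 passed the filter on low values in every table. The question addressed was whether genes that respond to FGF in the epithelium moved together with Fgf10 of the mesenchyme.

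In the embryonic lung, Fgf10 is secreted by mesenchyme near the distal tips and binds Fgfr2 on the epithelium. The receptor acts through ERK and raises Etv4 and Etv5, which encode ETS-family transcription factors, together with Spry genes and Dusp6, whose products restrain the same pathway. Fgf9 is made by mesothelium and epithelium and acts on mesenchyme, and Sox9 marks the epithelial progenitors of the tips and also the cells that form cartilage.

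Lungs of mouse embryos were compared at 14.5 dpc (days post coitus) in 3 lines, each with 3 control and 3 deficient samples, 18 in all. Deficient lungs were Rptorf/f, Tfamf/f or Cox10f/f, and their littermate controls were Rptorf/+, Tfamf/+ or Cox10f/+. All 6 groups also carried ShhCre/+, a Cre inserted at Shh that is active in lung epithelium, so the controls too had 1 floxed allele of the target and a Cre allele at Shh. Rptor encodes a core subunit of mTORC1, Tfam a factor that maintains mitochondrial DNA, and Cox10 an assembly factor of cytochrome c oxidase. Deletion was thus directed at the epithelium, while RNA came from all cells of the lung.

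The normalised read counts of a sample summed to between 27727200 and 29611100. In whole lungs the deleted genes themselves overlapped between groups: Rptor stood at 2298, 2224 and 2197 in Rptor control lungs and at 2442, 1986 and 2019.8 in Rptor-deficient lungs, with log2 fold changes of -0.07 ± 0.08 for Rptor, -0.12 ± 0.08 for Tfam and -0.01 ± 0.07 for Cox10 in their own lines (SE, n = 3 per group). These whole-gene values therefore gave no check of the deletion. Markers of lung epithelium were present in every sample and lower in deficient lungs. In the Rptor, Tfam and Cox10 lines 10, 6 and 4 of 11 fell (18.2%, 2.63% and 0.335% of all genes did). Their summed level was 29636 to 29904 against 12598 to 16325 for Rptor, 27981 to 29400 against 22401 to 24698 for Tfam and 22451 to 23096 against 15338 to 19627 for Cox10. Among deficient replicates, replicate 3 of the Cox10 line stood apart, with a chi-square per gene of 22.9 and 26.0 against replicates 1 and 2, which differed from each other by 6.90. Replicate 1 of the Rptor-deficient lungs stood apart too, at 17.7 and 22.1 against replicates 2 and 3, which differed by 10.2.

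Fgf10 was higher in deficient lungs of all 3 lines. In the Rptor line it stood at 1294, 1667 and 1401 normalised read counts in control lungs and at 5198, 4774 and 5960 in deficient lungs. Tfam control lungs held 1291, 1289 and 1350.4 and Tfam-deficient lungs 2385, 2369 and 2780.1. Cox10 control lungs held 1386, 1472 and 1357 and Cox10-deficient lungs 2373, 2482 and 3781. The groups did not overlap in any line, the control levels of the 3 separately normalised tables were close to each other, and the highest deficient value of the Cox10 line came from replicate 3, which stood apart in that line.

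The log2 fold change of Fgf10 was 1.87 ± 0.11 in the Rptor line (SE, limma adjusted p = 2.51e-05) and 0.93 ± 0.07 in the Tfam line (limma adjusted p = 3.82e-05). It was 1.00 ± 0.16 in the Cox10 line, which did not pass the threshold of 0.05 (limma adjusted p = 0.0525). Without replicate 3 of the Cox10-deficient lungs the change was 0.79 and passed (limma adjusted p = 0.00114), as it did without deficient replicate 1, at 1.13 (limma adjusted p = 0.0449). The rise after loss of Rptor exceeded that after loss of Tfam by 0.94 ± 0.19 and that after loss of Cox10 by 0.87 ± 0.19 on the log2 scale (limma adjusted p = 0.00523 and 0.00938), whereas the Tfam and Cox10 lines differed by -0.07 ± 0.19 (limma adjusted p = 0.995).

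Bulk values cannot tell more cells of a type from more RNA per cell, nor fewer cells from less RNA. Fgf10 was therefore also read against a mesenchymal reference, the mean log2 level of Tcf21, Tbx4 and Foxf1, transcription factors of lung mesenchyme. That reference moved by 0.28 for Rptor, 0.05 for Tfam and -0.04 for Cox10 on the log2 scale, all smaller than the rise of Fgf10. Its 3 genes moved unequally: Tcf21, Tbx4 and Foxf1 changed by 0.77, -0.04 and 0.12 for Rptor, by 0.15, -0.02 and 0.0050 for Tfam and by 0.09, 0.08 and -0.28 for Cox10, of which the Rptor change of Tcf21 alone passed (limma adjusted p = 6.10e-05). Relative to the reference, Fgf10 rose by 1.59 ± 0.12, 0.89 ± 0.08 and 1.04 ± 0.12 on the log2 scale (limma adjusted p = 3.89e-05, 7.50e-05 and 0.00675). With the other references tried, each pair of the 3 genes and all 9 genes of a longer mesenchyme list, it rose by 1.36 to 1.83 for Rptor, 0.86 to 0.94 for Tfam and 0.89 to 1.10 for Cox10, past the threshold in each (limma adjusted p of up to 0.0275), with the lowest Rptor and Cox10 values against all 9. Of the 10 genes, 5 passed relative to the mesenchyme in the Rptor line (2 higher, Fgf10 and Dusp6, and 3 lower, Fgfr2, Etv5 and Sox9), where 54.5% of all genes did (5.87% higher and 48.6% lower). In Tfam lungs 6 passed, 4 higher and 2 lower, against 4.64% of all genes (1.28% higher and 3.36% lower), and in Cox10 lungs Fgf10 alone passed, against 0.422% (0.187% higher). That longer list of lung mesenchyme markers had 5 of 9 genes higher in Rptor-deficient lungs (Col1a1, Col1a2, Col3a1, Tcf21 and Pdgfra), where 16.6% of all genes were higher. Its sum was 189775 to 220226 in Rptor control and 380190 to 411596 in Rptor-deficient lungs. In each other line limma called 0 of 9, with 3 at an unadjusted p below 0.05 (2618 of all 15053 genes for Tfam, 1945 of 14937 for Cox10). How much of the rise of Fgf10 goes with the amount of mesenchyme was not tested beyond these values. In GENCODE M21 (GRCm38) Fgf10 lies on chr13:118669791-118792115, plus strand, and shares exon sequence with Gm16263 on the other strand, whose reads cannot be told apart from it without strand.

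**Figure D1:**
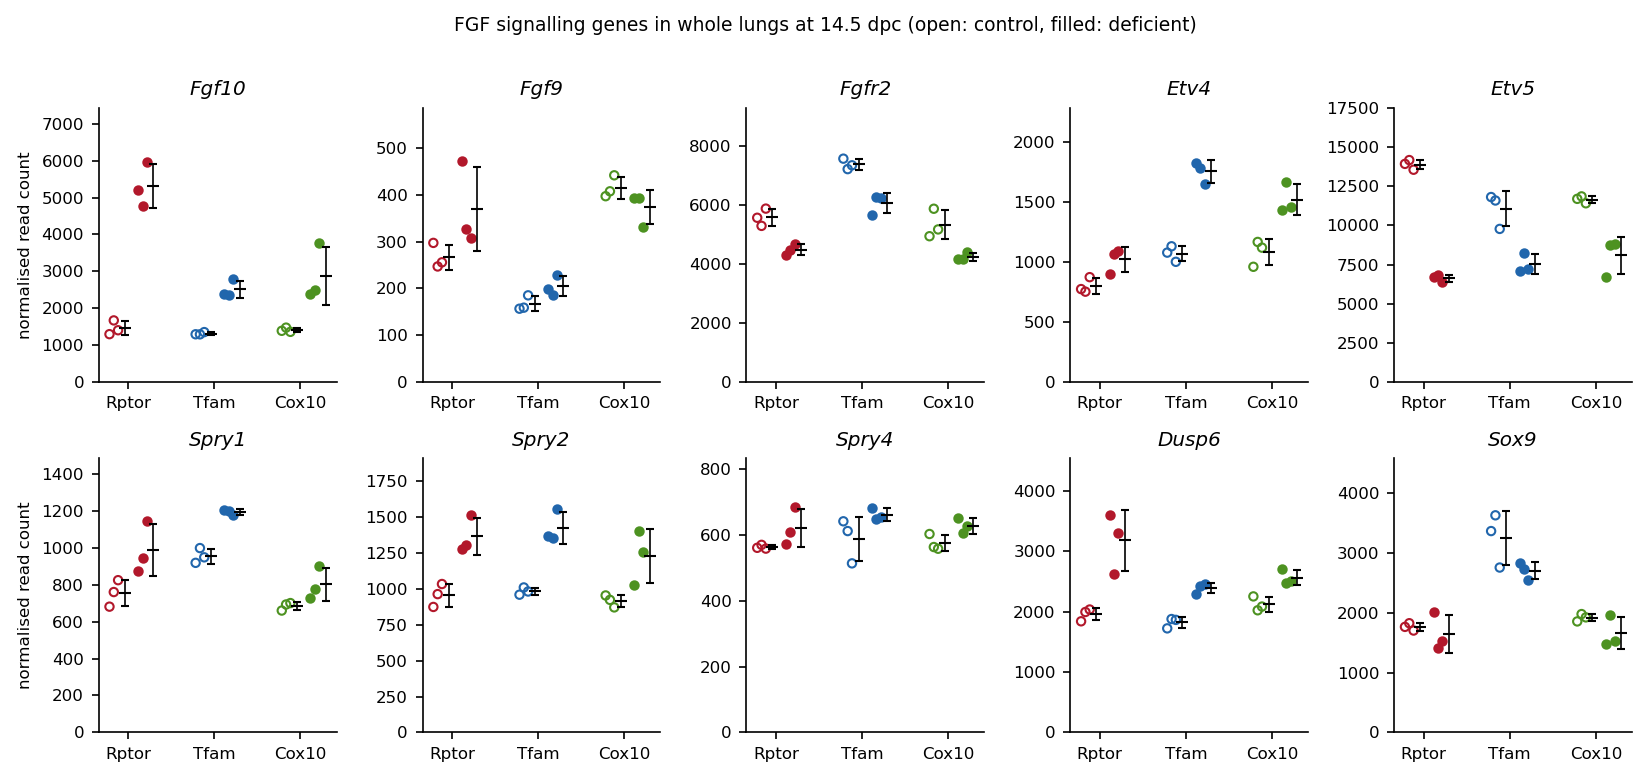
Normalised read counts of the 10 genes (vertical axes, each from 0) in the 18 lungs, by line on the horizontal axis. Open points are control and filled points deficient samples, and the black bar beside each group is the mean ± SD (n = 3). Fgf10 rose from a control mean of 1454 to 5310.5 in the Rptor line, Etv5 went from 13887 to 6620, and the Sox9 groups overlapped in all 3 lines.

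Fgf9, the other ligand, passed the threshold in 0 of 3 lines with limma (unadjusted p below 0.05 for Rptor and Tfam). In the Rptor line it stood at 297, 247 and 256 in control and at 472, 328 and 308 in deficient lungs. Tfam lungs held 156, 159 and 185 in control against 199, 186 and 229 in deficient samples, and Cox10 lungs 397, 407 and 442 against 394, 394 and 331. The groups were separated narrowly, upwards in the Rptor and Tfam lines and downwards in the Cox10 line. The log2 fold changes were 0.45 ± 0.17, 0.29 ± 0.12 and -0.16 ± 0.10 (SE, limma adjusted p = 0.0672, 0.242 and 0.515). With the replicate number as a block the change in the Rptor line passed (limma adjusted p = 0.0173), as it did without Rptor-deficient replicate 3 (0.56, limma adjusted p = 0.0435). The sum of 6 mesothelium markers, from a source of Fgf9, was 4813 to 6243 in control and 8419 to 9077 in deficient lungs of that line. Of the 6, 4 rose (Lrrn4, Wt1, Upk1b and Upk3b), where 16.6% of all genes rose. The other 2, Msln and Krt19, were lower with groups that did not overlap and did not pass, at -0.93 and -0.10 on the log2 scale. With the replicate block Msln passed (limma adjusted p = 0.0296). Their part in the result was not tested. Fgf9 had the lowest level per kilobase of exon of the 10 genes in every group (chr14:58070547-58112720, plus strand).

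Fgfr2, the epithelial receptor of Fgf10, was lower in deficient lungs of each line by a similar amount. It stood at 5556, 5281 and 5866 in Rptor control lungs and at 4283, 4473 and 4656 in Rptor-deficient lungs. Tfam lungs held 7557, 7202 and 7332 against 5662, 6276 and 6229, and Cox10 lungs 4931, 5861 and 5161 against 4157, 4167 and 4397. Every control sample was above every deficient sample of its line. Its log2 fold changes were -0.32 ± 0.06, -0.28 ± 0.06 and -0.32 ± 0.07 (SE), past the threshold in the Rptor and Tfam lines (limma adjusted p = 0.00434 and 0.0212) and not in the Cox10 line (limma adjusted p = 0.123). For Tfam the call was lost in 4 of 6 fits that each left out 1 sample (log2 fold changes of -0.31 to -0.24, limma adjusted p of up to 0.102), namely without control replicate 1 or any of the 3 deficient replicates. The 3 lines differed in this fall by at most 0.04 ± 0.09 on the log2 scale. The gene model of Fgfr2 in GENCODE M21 (chr7:130162451-133123350, minus strand) shares exon sequence with Ctbp2 on the same strand, so its length and its separation from that gene are uncertain.

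Etv5 and Etv4, which encode close relatives of the PEA3 group, moved in opposite directions. Etv5 was the most abundant of the 10 per kilobase of exon in every group. It stood at 13931, 14174 and 13557 in Rptor control lungs and at 6703, 6798 and 6358 in Rptor-deficient lungs. Tfam lungs held 11812, 11590.1 and 9775 against 7098, 8262 and 7226, and Cox10 lungs 11696, 11853 and 11412 against 6724, 8743 and 8807. The groups did not overlap in any line. Mean Etv5 in deficient lungs was 0.477, 0.681 and 0.694 of the control mean in the Rptor, Tfam and Cox10 comparisons. On the log2 scale it changed by -1.07 ± 0.05, -0.55 ± 0.08 and -0.54 ± 0.10, of which the Rptor and Tfam changes passed (SE, limma adjusted p = 1.46e-05, 0.00358 and 0.0800). The Cox10 change passed without Cox10-deficient replicate 1 (limma adjusted p = 0.0412) or replicate 3 (limma adjusted p = 0.0243). The effect of Rptor loss differed from that of Tfam loss by -0.52 ± 0.13 and from that of Cox10 loss by -0.53 ± 0.13 on the log2 scale (limma adjusted p = 0.0167 and 0.0165). The difference from Tfam loss was -0.45 and missed the threshold without Tfam-deficient replicate 2 (limma adjusted p = 0.0506).

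Etv4 stood at 774, 752 and 873 in Rptor control lungs and at 901, 1069 and 1095 in Rptor-deficient lungs. Tfam lungs held 1078, 1131 and 1001 against 1829, 1786 and 1650.0, and Cox10 lungs 959.8, 1167 and 1119 against 1435, 1667 and 1455. Every deficient sample was above every control sample of its line. The log2 fold changes were 0.35 ± 0.10, 0.71 ± 0.07 and 0.49 ± 0.09 (SE, limma adjusted p = 0.0230, 1.92e-04 and 0.0790). In the Rptor line, where Fgf10 rose most, the rise of Etv4 was the smallest of the 3, but the differences between lines did not pass (Rptor minus Tfam -0.36 ± 0.13, limma adjusted p = 0.0782). The call in the Rptor line was lost in 4 of 6 fits that left out 1 sample, all but those without control replicate 3 or deficient replicate 1, with limma adjusted p of up to 0.0844.

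Because the genes differ in length, Etv4 was set beside Etv5 per kilobase of exon, a comparison made after the values were seen and given without a test. Etv4 was 7.62% ± 0.789 of Etv5 in Rptor control lungs and 20.4% ± 2.51 in Rptor-deficient lungs (SD, n = 3). It was 12.8% ± 0.741 against 30.9% ± 2.82 in Tfam lungs and 12.3% ± 1.24 against 25.1% ± 3.19 in Cox10 lungs. Etv5 remained the more abundant of the pair in every sample. Etv4 lies on chr11:101769742-101785371 and Etv5 on chr16:22381309-22439719, both on the minus strand.

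Of the feedback inhibitors, Dusp6, Spry2 and Spry1 rose in the Rptor and Tfam lines and Spry4 did not pass in any line. Dusp6, a phosphatase that acts on ERK, stood at 1839, 1993 and 2034 in Rptor control lungs and at 3603, 2623 and 3308 in Rptor-deficient lungs. Tfam lungs held 1722, 1877 and 1863 against 2296, 2421 and 2453, and Cox10 lungs 2251, 2021 and 2083 against 2700.4, 2476 and 2502. The groups did not overlap, and the Rptor-deficient samples were the most spread. Its log2 fold changes were 0.69 ± 0.11, 0.39 ± 0.06 and 0.27 ± 0.06 (SE, limma adjusted p = 0.00211, 0.00348 and 0.130). The effect of Rptor loss exceeded that of Cox10 loss by 0.42 ± 0.12 on the log2 scale (limma adjusted p = 0.0469), a call that was kept in 2 of 18 fits that each left out 1 sample (limma adjusted p of up to 0.128).

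Spry2, a Sprouty inhibitor of receptor tyrosine kinase signalling, had similar fold changes in the 3 lines. It stood at 875, 964 and 1034 in Rptor control lungs and at 1281, 1307 and 1515 in Rptor-deficient lungs. Tfam lungs held 960.1, 1011 and 982 against 1368, 1354 and 1557, and Cox10 lungs 955, 924 and 871 against 1031, 1403 and 1260.4. Deficient samples were above control samples throughout. On the log2 scale it changed by 0.51 ± 0.09, 0.53 ± 0.07 and 0.41 ± 0.11 (SE, limma adjusted p = 0.00347, 0.00137 and 0.200). Lines differed by at most 0.12 ± 0.14 in this change.

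Spry1, another Sprouty inhibitor, stood at 681, 760.3 and 825 against 875, 943 and 1143 in Rptor lungs, at 918, 998 and 948 against 1206, 1198 and 1175 in Tfam lungs and at 660.0, 693 and 701 against 730.5, 776 and 901 in Cox10 lungs. Its groups were separated in each comparison. Its log2 fold changes were 0.38 ± 0.11, 0.32 ± 0.06 and 0.22 ± 0.09 (SE, limma adjusted p = 0.0309, 0.0136 and 0.354). The calls in the Rptor and Tfam lines were each lost in 4 of 6 fits that left out 1 sample (limma adjusted p of up to 0.104 and 0.0729), in the Rptor line without control replicates 1 or 2 or deficient replicates 2 or 3, and in the Tfam line without control replicate 1 or any deficient replicate. Spry1 (chr3:37639947-37644598, plus strand) shares exon sequence with Gm42922 on the other strand.

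Spry4 changed least of the inhibitors, with log2 fold changes of 0.14 ± 0.09, 0.17 ± 0.09 and 0.13 ± 0.07 (SE, limma adjusted p = 0.253, 0.356 and 0.469). Its values were 559 to 570.5 in Rptor control and 572 to 686 in Rptor-deficient lungs, 514 to 642 against 648 to 684 for Tfam and 559 to 603 against 605 to 653 for Cox10. The groups were separated in each line by a narrow gap.

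Sox9 was the only one of the 10 whose groups overlapped, and they did so in all 3 lines. It stood at 1762, 1823 and 1701 in Rptor control lungs and at 2009.9, 1416 and 1522 in Rptor-deficient lungs. Tfam lungs held 3362, 3625 and 2753 against 2823, 2732 and 2551, and Cox10 lungs 1853, 1976 and 1921 against 1469, 1959 and 1530.2. The overlap came from replicate 1 of the Rptor-deficient and replicate 2 of the Cox10-deficient lungs, and in Tfam lungs from control replicate 3 and deficient replicate 1, either of which left groups that did not overlap when it was left out. Its log2 fold changes were -0.11 ± 0.12, -0.26 ± 0.09 and -0.23 ± 0.10 (SE, limma adjusted p = 0.495, 0.169 and 0.404). Of the 6 fits per line that left out 1 sample, 1 passed for Rptor (without deficient replicate 1, -0.26, limma adjusted p = 0.0120), 1 for Tfam (without control replicate 3, -0.37, limma adjusted p = 0.00788) and 0 for Cox10 (lowest limma adjusted p = 0.0878). In Tfam lungs without deficient replicate 1 the change was -0.29 and did not pass (limma adjusted p = 0.227). Cartilage, the other site of Sox9, had 3, 1 and 0 of 5 tested markers lower in the 3 lines (18.2%, 2.63% and 0.335% of all genes were). Its summed level was 4749.5 to 5676 against 3162 to 4127 for Rptor, 4026 to 4481 against 2864 to 3562 for Tfam and 6853 to 7365 against 4855 to 7068 for Cox10. The cartilage markers did not move as one. Col2a1, a collagen of cartilage, changed by -1.43, -0.72 and -0.35 on the log2 scale, while Acan, the cartilage proteoglycan, at 2.02 to 63.7 across the 18 samples, was at 1.09, -1.12 and 1.19 and did not pass (limma adjusted p = 0.207, 0.374 and 0.446). Of the 5, 2 were above 0 for Rptor, 0 for Tfam and 2 for Cox10. Their part in the Sox9 values was not tested. Sox9 lies on chr11:112782224-112787760, plus strand.

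**Figure D2:**
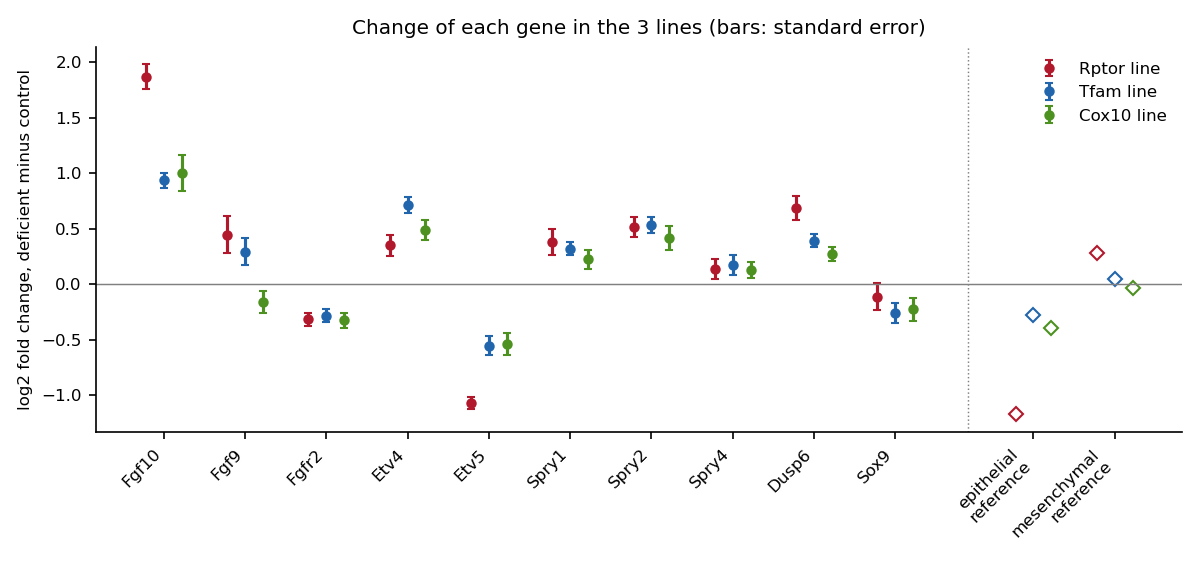
Log2 fold change of each gene (vertical axis, deficient minus control, bars are standard errors, n = 3 per group) in the Rptor, Tfam and Cox10 lines. Diamonds on the right are the changes of the epithelial reference, -1.17, -0.27 and -0.40, and of the mesenchymal reference. Fgf10 rises and Etv5 falls most in the Rptor line, while Fgfr2 and Spry2 lie at similar heights in all 3.

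Counted together, 7 of the 10 genes passed the threshold in the Rptor line, 5 higher and 2 lower, where 34.8% of all genes tested did so (16.6% higher and 18.2% lower). Among Tfam lungs it was also 7 of 10, 5 higher and 2 lower, against 4.66% of all genes (2.03% higher and 2.63% lower). They were the same 7 genes in both lines: Fgf10, Etv4, Spry1, Spry2 and Dusp6 rose and Fgfr2 and Etv5 fell. In the Cox10 line limma called 0 of 10, against 0.475% of all genes (0.141% higher and 0.335% lower). There 7 of 10 had an unadjusted p below 0.05, as did 1945 of all 14937 genes. In the same lungs markers of other cell types moved too: in the Rptor line 5 of 5 endothelial markers were higher (summed level 26415 to 27513 against 33195 to 37703), as were 4 of 4 macrophage markers (2645 to 2963 against 4134 to 4773), and of 6 smooth muscle markers 5 were lower and 1 higher (16843 to 22761 against 17127 to 26006). In the Tfam line 5 of 6 smooth muscle markers were lower (22239 to 25765 against 16846 to 19401). For Cox10 limma called 0 of these 6, with 5 at an unadjusted p below 0.05 and a median log2 fold change of -0.92 (13352 to 15598.5 against 8940 to 12422). Their part in these counts was not tested. Without Cox10-deficient replicate 3, limma called 3 (Fgf10, Etv4 and Etv5, against 1.68% of all genes in that fit), and without Cox10-deficient replicate 1 it called 3 (Fgf10, Etv5 and Spry2, against 0.495%). The direction was the same in all 3 lines for 9 of the 10, all but Fgf9. Groups did not overlap for 9 of 10 genes in each line. This held for 50.3% of all genes in Rptor lungs (24.3% higher and 26.0% lower), for 22.8% in Tfam lungs (10.9% and 11.8%) and for 21.3% in Cox10 lungs (10.6% and 10.8%), and of the 9 genes 7 were higher and 2 lower for Rptor and Tfam and 6 higher and 3 lower for Cox10. The median log2 fold change of the 10 was 0.37, 0.31 and 0.18, and that of all genes tested was 0.0083, 0.00098 and 0.0014.

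With the effects of the 3 lines averaged in 1 model of all 18 samples, 9 of 10 genes passed, 6 higher and 3 lower, against 37.1% of all genes (18% higher and 19.1% lower). The mean log2 effects were 1.27 ± 0.08 for Fgf10, 0.52 ± 0.05 for Etv4, 0.49 ± 0.06 for Spry2, 0.45 ± 0.05 for Dusp6, 0.31 ± 0.05 for Spry1 and 0.15 ± 0.05 for Spry4. They were -0.72 ± 0.05 for Etv5, -0.31 ± 0.04 for Fgfr2 and -0.20 ± 0.07 for Sox9. Fgf9 did not pass, at 0.19 ± 0.08 (limma adjusted p = 0.0702), but did without Rptor-deficient replicate 3 or Cox10-deficient replicate 3 (lowest limma adjusted p = 0.0322) and with the replicate block (limma adjusted p = 0.0262). Spry4 (limma adjusted p = 0.0240) missed without Rptor-deficient replicate 3 (limma adjusted p = 0.0519). The call for Sox9 (limma adjusted p = 0.0349) was lost in 12 of 18 fits that each left out 1 sample, with effects of -0.25 to -0.16 over all 18. It passed in the 6 fits without Rptor control replicate 3 or deficient replicate 1, Tfam control replicate 3 or deficient replicate 1, or Cox10 control replicate 1 or deficient replicate 2. Between lines, 2 of 10 effects differed for Rptor against Tfam (Fgf10 higher and Etv5 lower, against 11.2% of all genes, 4.82% higher and 6.35% lower). For Rptor against Cox10 it was 3, with Dusp6 added on the higher side (7.48%, 3.27% higher and 4.21% lower), and for Tfam against Cox10 limma called 0 (0.0550%, 0.0481% higher and 0.00687% lower), where 1 gene, Fgf9, had an unadjusted p below 0.05 (0.45 ± 0.20).

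Epithelial markers were lower in the same lungs as Etv5. An epithelial reference, the mean log2 level of Epcam, Cdh1 and Nkx2-1, changed by -1.17, -0.27 and -0.40 for Rptor, Tfam and Cox10. Relative to it, Etv5 was at 0.10 ± 0.15 in Rptor lungs (SE, limma adjusted p = 0.523), at -0.28 ± 0.11 in Tfam lungs (limma adjusted p = 0.0486) and at -0.14 ± 0.13 in Cox10 lungs (limma adjusted p = 0.336). The sign in Rptor lungs turned with the reference: without Cdh1 in it Etv5 was at -0.26 (limma adjusted p = 0.162), and with all 11 epithelial markers as reference at -0.05 (limma adjusted p = 0.733). Without Rptor-deficient replicate 1 it was at -0.02 (limma adjusted p = 0.796). The Tfam call was lost under each other reference tried, with limma adjusted p of 0.0521 to 0.125, and in 5 of 6 fits that left out 1 sample, all but that without control replicate 3. Fgfr2 relative to the same reference was 0.86 ± 0.14 higher in the Rptor line (limma adjusted p = 2.00e-05) and changed by -0.01 ± 0.08 and 0.07 ± 0.14 in the others. Sox9 was 1.06 ± 0.19 higher in the Rptor line and changed by 0.02 ± 0.12 and 0.17 ± 0.15 in the Tfam and Cox10 lines, where neither passed. In Cox10 lungs without deficient replicate 3 it was at 0.33 and passed (limma adjusted p = 0.00258), and in Tfam lungs it was at -0.12 with a reference without Cdh1 (limma adjusted p = 0.645). Etv4 rose relative to the reference in each line, by 1.52 ± 0.14, 0.99 ± 0.10 and 0.89 ± 0.15 (limma adjusted p = 1.74e-07, 5.50e-05 and 0.00313). Relative to the mesenchymal reference Etv4 was at 0.07 ± 0.12, 0.67 ± 0.07 and 0.53 ± 0.11, and only the Tfam change passed (limma adjusted p = 0.652, 2.71e-04 and 0.0964). In Rptor lungs Spry1 at 0.10 ± 0.13 and Spry2 at 0.23 ± 0.11 did not pass against that mesenchymal reference either (limma adjusted p = 0.560 and 0.0997).

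These relative values move with the reference, since the other genes of the lung rise against it too. In Rptor lungs 9 of 10 genes passed, all higher, where 95.3% of all genes passed (94.5% higher and 0.763% lower). In Tfam lungs 7 were higher and 1 lower, where 50.3% of all genes passed (49.0% higher and 1.33% lower), and in Cox10 lungs 6 were higher, where 54.2% passed (53.8% higher and 0.469% lower). The 3 reference genes themselves fell unequally: in the Rptor line Cdh1 changed by -1.89, Nkx2-1 by -0.85 and Epcam by -0.77 on the log2 scale. Fgfr2 and Sox9 also have expression outside the epithelium. Values of whole lungs do not assign Etv4, Etv5, the Spry genes or Dusp6 to the epithelium either. How much of each change belongs to the epithelium was not tested.

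Across the 18 samples, with each line centred on its own mean, the response genes lined up with Fgf10 in both directions. Pearson's r with Fgf10 was 0.91 for Dusp6, 0.89 for Spry2, 0.88 for Spry1, 0.75 for Etv4, 0.63 for Spry4 and 0.48 for Fgf9. It was -0.93 for Etv5, -0.83 for Fgfr2 and -0.50 for Sox9. The samples of each line fall into a control and a deficient cluster, so these values mostly restate the group differences and are given as a description.

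**Figure D3:**
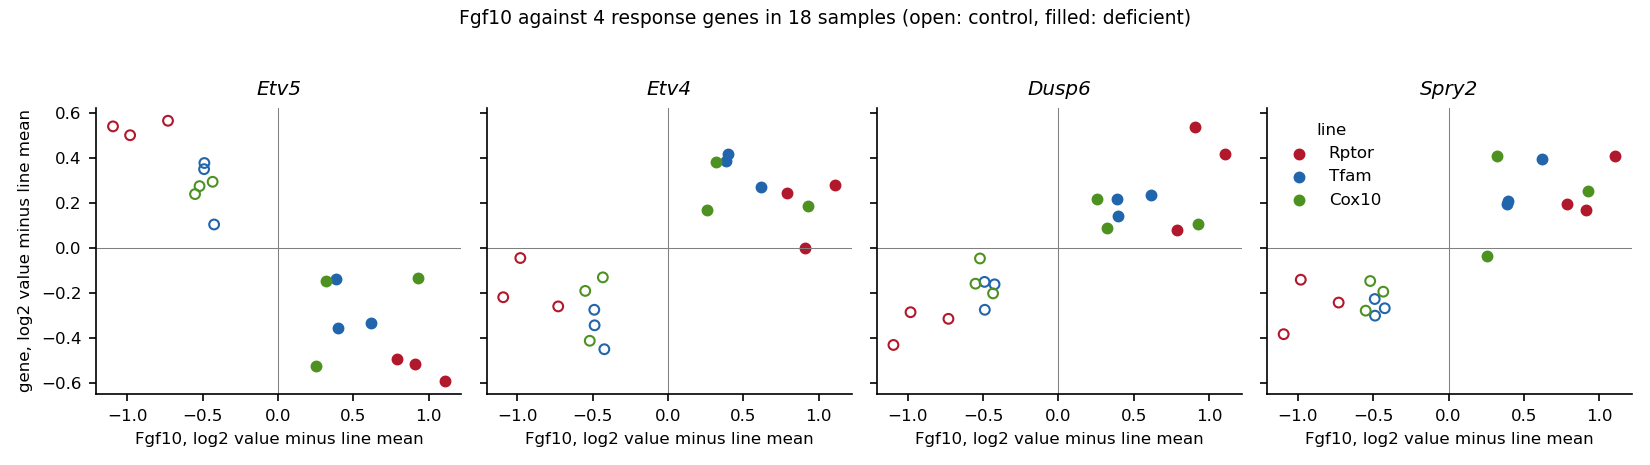
Log2 value of Etv5, Etv4, Dusp6 and Spry2 (vertical axes) against that of Fgf10 (horizontal axes), each minus the mean of its line, in 18 lungs. Open points are control and filled points deficient samples. Control and deficient samples form separate clusters: Etv5 is low where Fgf10 is high, the other 3 are high there, and Pearson's r runs from -0.93 (Etv5) to 0.91 (Dusp6).

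Of 12585 genes ranked by this measure, those most like Fgf10 were Aox3 (r = 0.984), Gpm6b (0.983), Hbegf (0.978), Adamts1 (0.973) and Tfpi (0.971). Hbegf, an EGF-family ligand, had log2 fold changes of 1.07, 0.65 and 0.58 for Rptor, Tfam and Cox10, and Adamts1, an extracellular protease, of 1.32, 0.65 and 0.58, all past the threshold but for Hbegf in Cox10 lungs (limma adjusted p = 0.162). The Cox10 call of Adamts1 was lost without any control replicate or deficient replicate 2 (limma adjusted p of up to 0.190). Genes named here were picked for following Fgf10, or Etv5 below, over these samples, so their group differences largely restate that choice. Dusp6 ranked 152 and Spry2 ranked 251. The genes most like Etv5 were Cgn (0.974), Ccdc88c (0.974), Crb3 (0.970), Rai14 (0.965) and Celsr1 (0.963). Cgn encodes a tight junction protein and Crb3 an apical polarity protein of epithelia, and Cgn changed by -0.96 on the log2 scale in the Rptor line, against -1.07 for Etv5. Relative to the epithelial reference the 5 genes differed in that line: Rai14 at 0.69 ± 0.15 and Ccdc88c at 0.50 ± 0.14 passed (limma adjusted p = 2.45e-04 and 0.00325), while Cgn at 0.21 ± 0.15, Crb3 at 0.17 ± 0.15 and Celsr1 at 0.02 ± 0.15 did not (limma adjusted p = 0.180, 0.290 and 0.875).

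The upstream sequences of 3 response genes are shown because their RNAs moved in opposite directions, Etv5 down and Dusp6 and Spry2 up. RefSeq (GRCm38.p6) gave 250 bases before the start of 7 of the 10 genes, and for Etv5 only the 101 bases that also precede the GENCODE start are printed. The strands are plus for Dusp6 (chr10:99262981-99263230) and minus for Etv5 (chr16:22439720-22439820) and Spry2 (chr14:105896820-105897069). Capitals mark a match to AGGAAG or its reverse complement CTTCCT, letters of the PEA3-type ETS site.
Etv5 upstream: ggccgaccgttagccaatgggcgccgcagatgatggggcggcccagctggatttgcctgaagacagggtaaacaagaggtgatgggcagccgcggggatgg
Dusp6 upstream: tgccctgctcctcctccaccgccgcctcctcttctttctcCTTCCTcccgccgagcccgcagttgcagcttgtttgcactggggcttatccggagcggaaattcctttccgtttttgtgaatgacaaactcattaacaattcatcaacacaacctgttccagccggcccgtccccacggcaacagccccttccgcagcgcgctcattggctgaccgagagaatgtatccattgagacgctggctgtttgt
Spry2 upstream: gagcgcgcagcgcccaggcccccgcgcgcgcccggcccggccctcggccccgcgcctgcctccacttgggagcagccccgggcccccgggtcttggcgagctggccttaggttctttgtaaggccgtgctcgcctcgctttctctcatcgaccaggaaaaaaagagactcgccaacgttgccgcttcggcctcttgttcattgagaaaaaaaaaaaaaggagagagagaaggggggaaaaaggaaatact

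Dusp6 held 1 match to AGGAAG in these letters, and the stretches of Etv5 and Spry2 held 0. Of 32851 RefSeq upstream regions of 250 bases, 29.5% held it on either strand. The letters CCGGAA (reverse complement TTCCGG), the core of a general ETS site, share GGAA with AGGAAG but not the base before it and were in 0 of the 3 and in 12.0% of all regions. These counts describe the windows shown and say nothing of binding.

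Other genes of the pathway, 48 in a list by role, did not share a direction. In the Rptor line 46 were tested, 11 rose and 12 fell (16.6% and 18.2% of all genes did), with a median of -0.0014. With the replicate block limma called 24 there, 12 in each direction, adding Fgf2 and Gpc6 and losing Ptpn11 (38.6% of all genes were called). Of 47 tested in the Tfam line 3 rose and 2 fell (2.03% and 2.63% of all genes did), with a median of -0.01. For Cox10, 5 of 46 had an unadjusted p below 0.05, as did 1945 of all 14937 genes. There limma called 0 (0.475% of all genes), with a median of 0.0024. Without Cox10-deficient replicate 3 it called 3 (1.68% of all genes), and for Tfam the count was 8 without control replicate 3 (7.46% of all genes), 2 without deficient replicate 2 (2.85%), 3 without control replicate 2 (3.31%) and 1 without any of the other 3 samples (2.41% to 2.97%).

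Among receptors, Fgfr1, the main FGF receptor of mesenchyme, rose by 0.72 in the Rptor line (limma adjusted p = 3.92e-04) and stood at 0.04 and 0.13 in the Tfam and Cox10 lines without passing. Fgfr3 fell by 0.52 in the Rptor line and by 0.47 in the Tfam line (limma adjusted p = 4.76e-04 and 0.00255). Among genes that handle heparan sulfate, the co-receptor of FGF, Sulf1 rose by 1.34 and Sulf2 by 0.85 in the Rptor line, both sulfatases that remove sulfate from it, and Sulf1 rose by 0.38 in the Tfam line (limma adjusted p = 0.0373). Sdc1, a syndecan of epithelium, fell by 0.57 and by 0.23 in these lines. Other ligands, among them Fgf7, which also binds Fgfr2, had 0 called in each line, with 2, 3 and 0 at an unadjusted p below 0.05 in limma. Of all genes, 6818 of 14940, 2618 of 15053 and 1945 of 14937 were below it. With the replicate block limma called 1 of these ligands in the Rptor line (Fgf2, higher), where it called 38.6% of all genes. The Tfam call of Sulf1 was lost without control replicates 1 or 3 or deficient replicates 1 or 3 (limma adjusted p of up to 0.136), and that of Sdc1 without any sample but control replicate 3 (up to 0.169).

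Of 15 other ERK response and feedback genes, 5 rose in the Rptor line (Phlda1, Dusp5, Spred3, Il17rd and Dusp4, where 16.6% of all genes rose) and 2 fell (Dusp14 and Ccnd1, where 18.2% fell). In the Tfam line 2 rose (2.03% of all genes did). For Cox10 limma called 0 (0.475% of all genes were called), with 2 at an unadjusted p below 0.05 (1945 of all 14937 genes). The Rptor call of Dusp5 was lost without control replicates 1 or 2 or deficient replicate 3 (limma adjusted p of up to 0.0649) and that of Spred3 without control replicates 2 or 3 or deficient replicates 1 or 2 (up to 0.121). Phlda1 rose by 0.58 in the Rptor line and by 0.28 in the Tfam line, and Dusp4, another phosphatase acting on MAP kinases, by 0.42 and 0.51 (limma adjusted p = 0.00906 and 0.0220). In the Tfam line the call of Phlda1 was lost without any sample but control replicate 3 (limma adjusted p of up to 0.155) and that of Dusp4 without control replicate 1 or any deficient replicate (up to 0.102). Dusp14 fell by 1.34 on the log2 scale in the Rptor line. Etv1, the remaining gene of the PEA3 group, changed by 0.13 ± 0.08, 0.08 ± 0.09 and 0.25 ± 0.13 (SE), and none of these passed (limma adjusted p = 0.221, 0.743 and 0.442).

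**Figure D4:**
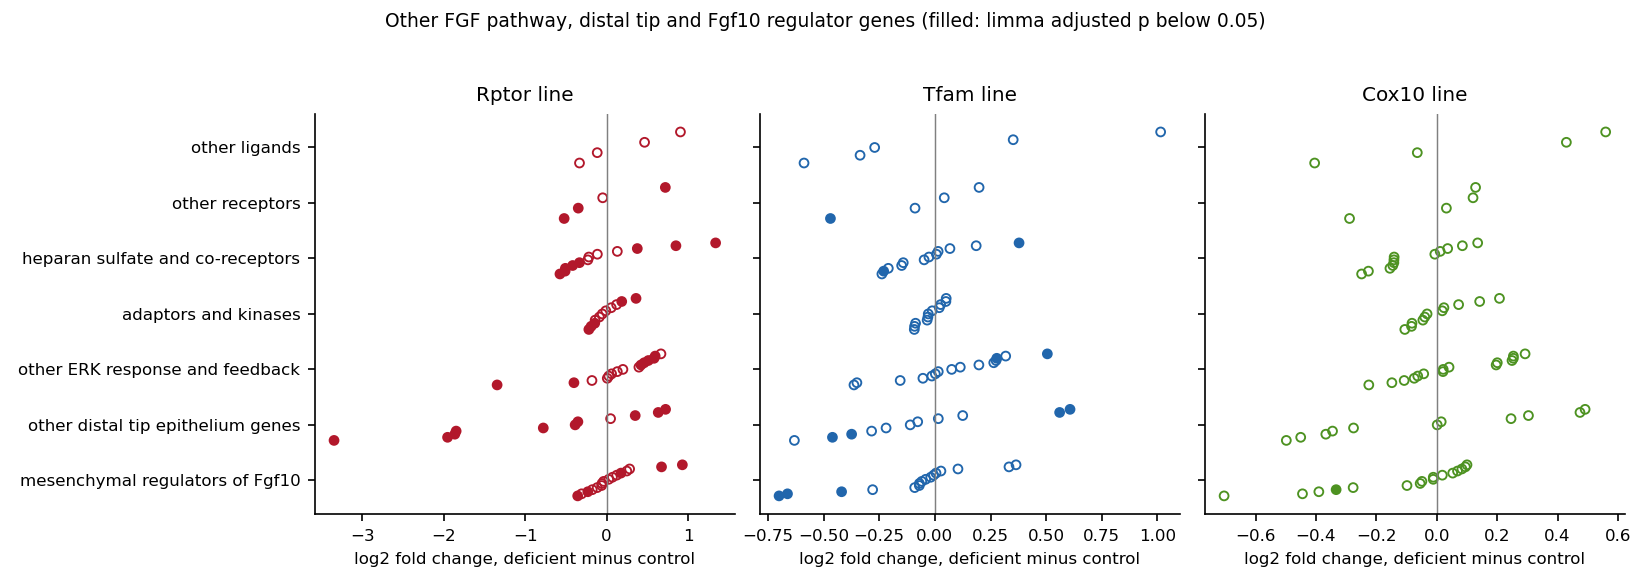
Log2 fold change (horizontal axes, deficient minus control, with a different range in each panel) of the tested genes of 7 lists, 1 row a list, in the Rptor, Tfam and Cox10 lines. Each point is a gene, filled where the limma adjusted p was below 0.05. Both directions are filled in the Rptor line, 5 pathway genes in the Tfam line and none of the pathway genes in the Cox10 line.

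Of 11 other genes of the distal tip, 3 rose and 7 fell in the Rptor line (16.6% and 18.2% of all genes did). In the Tfam line 2 rose and 2 fell (2.03% and 2.63% of all genes). In the Cox10 line limma called 0 (0.475% of all genes), with 7 at an unadjusted p below 0.05 (1945 of all 14937 genes). Bmp4, a growth factor of the tip, stood at 1829, 1954 and 2050.0 against 3265, 2823 and 2968 in the Rptor line and rose by 0.63 there and by 0.61 in the Tfam line (limma adjusted p = 4.93e-04 and 2.07e-04). Id2, a marker of tip progenitors, rose by 0.35 and 0.56 (limma adjusted p = 0.00184 and 4.95e-04). In the Cox10 line Bmp4 was at 0.47 and Id2 at 0.49 without passing (limma adjusted p = 0.0960 and 0.0571). Gata6, a transcription factor of lung epithelium and mesenchyme, rose by 0.72 in the Rptor line and was at 0.13 and 0.30 in the other lines without passing. Elf5, an epithelial ETS factor, fell by 3.35 on the log2 scale in the Rptor line, from 351 to 33.3. Irx1 fell by 1.95 in the Rptor line and by 0.46 in the Tfam line. Sftpc, the surfactant protein of the alveolar lineage, changed by -1.86, -0.63 and -0.50, of which the first passed, and in the Cox10-deficient lungs it stood at 386, 562 and 4084, replicate 3 again apart.

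Among 16 genes listed as regulators of Fgf10 or their targets, 3 rose and 2 fell in the Rptor line, where 16.6% and 18.2% of all genes did, a share near that background. In the Tfam line 0 rose and 3 fell (2.03% and 2.63% of all genes did), and for Cox10 0 rose and 1 fell (0.141% and 0.335%). With the replicate block limma called 8 in the Rptor line, 4 in each direction, where it called 38.6% of all genes. The block added Ptch1, Gli2, Gli3 and Wnt2 and lost Isl1. Shh, the epithelial ligand known to restrain Fgf10, stood at 1256, 1266 and 1207 against 990.2, 1123 and 1065 in Rptor lungs, at 980.4, 898 and 882 against 483, 624 and 599 in Tfam lungs and at 988, 1111 and 1008 against 567, 836 and 539 in Cox10 lungs. Its groups did not overlap in any line. It changed by -0.23 ± 0.07, -0.70 ± 0.10 and -0.70 ± 0.16 (SE, limma adjusted p = 0.0303, 0.00220 and 0.134). The differences of 0.47 ± 0.18 between its Rptor change and that of each other line did not pass (limma adjusted p of up to 0.120). Relative to the epithelial reference Shh was at 0.94 for Rptor, -0.43 for Tfam and -0.31 for Cox10 (limma adjusted p = 8.43e-06, 0.00780 and 0.136). Its part in the Fgf10 values was not tested. Of the genes that Hedgehog signalling induces, Hhip fell by 0.36 in the Rptor line and by 0.66 in the Tfam line (limma adjusted p = 0.0328 and 4.19e-04), and Ptch1 fell by 0.42 in the Tfam line (limma adjusted p = 0.0376). Gli1 changed by -0.12, -0.28 and -0.10 and was not called in the fits without a block. Wnt2b, Isl1 and Tbx2 rose by 0.93, 0.67 and 0.18 in the Rptor line. Wnt2b stood at 749, 442 and 521 in control and at 1802, 781 and 848 in deficient lungs, and without deficient replicate 1 its change was 0.55 (limma adjusted p = 0.0499). Tgfb2 fell by 0.33 in the Cox10 line (limma adjusted p = 0.0265). Leaving out 1 sample lost the call of Wnt2b without control replicates 2 or 3 (limma adjusted p of up to 0.158), that of Isl1 without any sample but control replicate 3 (up to 0.158), that of Tbx2 without any but deficient replicate 2 (up to 0.131) and that of Tgfb2 without any but deficient replicate 3 (up to 0.223). In the Rptor line Shh missed without any control replicate or deficient replicate 3 (up to 0.0914) and Hhip without control replicates 1 or 2 or deficient replicates 2 or 3 (up to 0.108), and in the Tfam line Ptch1 missed without control replicates 1 or 2 or deficient replicates 1 or 3 (up to 0.157).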

How the data were processed

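RNA of 18 whole-lung samples was analysed, in 6 groups of 3 given by the labels. Per the submitters' processing notes, reads were handled with Trim Galore, HISAT2, featureCounts and DESeq2 on mm10, without versions, and strandedness was not given in the sources used here. The authors deposited a normalised signal in 3 tables, 1 per line: the read count of each gene over its sample size factor. All values were whole multiples, within 0.01, of a step of 0.978 to 1.02. The log2 fold changes, p-values and adjusted p-values also held in the tables were not used.

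The steps lie so near 1 that whole reads were not taken as recovered, and no count test was run. Values were analysed as log2(value + 1), which understates the change of low genes, with limma 3.58.1 (R 4.3.3; lmFit, eBayes with trend) in each line, for genes at 10 or more in at least 3 of 6 samples. P-values were two-sided and adjusted by the Benjamini-Hochberg method over all genes tested, with a threshold of 0.05. Mean effects and differences between lines came from a model of 6 groups on 14551 genes. Tables were normalised separately, so tests stayed within a line's own contrast. For references, the mean log2 value of 3 genes was subtracted in each sample. The fits were tested on simulated data. Controls were littermates, but which RNA samples shared a litter is not given in the sources used here, so p-values measure the spread between these samples. No pair of replicates agreed within sampling noise (lowest chi-square per gene 3.54).

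Deviations of samples with the same replicate number correlated by 0.221, 0.330 and 0.259 in the Rptor line. Each was above 0.1, a cut set without a test, and the numbers were taken to pair samples there. Samples of unlike number reached 0.378 in the Tfam line (control replicate 2 and deficient replicate 1), so the pairing is uncertain. Results and counts come from fits without the replicate block unless it is named. With it 8 of 10 genes passed in the Rptor line, 6 higher and 2 lower, where 38.6% of all genes did. The block was tried as an alternative, as were other scalings, filters, pseudocounts, an Xist covariate, all 18 samples in a single fit, other references and leaving out each sample.

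Positions and exon lengths came from GENCODE M21 (GRCm38). Named genes were all 10, the 3 with the largest rise and fall past the threshold in each list and line, the reference genes and the 5 most like Fgf10 and Etv5. Genes named beyond these (Etv1, Fgf7, Gli1, Col2a1, mesenchymal markers, further ERK response genes and values of a listed gene in lines where it was not called) were chosen after their values were seen. The genes and lists were chosen with earlier results of these data known.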

Additional observations from a re-analysis of the deposited data

Results flagged for a closer look

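Effects on 3 genes differed between lines by a test of the difference itself. The rise of Fgf10 with Rptor loss exceeded that with Tfam loss by 0.94 ± 0.19 and that with Cox10 loss by 0.87 ± 0.19 on the log2 scale (SE, limma adjusted p = 0.00523 and 0.00938), and both passed in all 18 fits that left out 1 sample. The change of Etv5 with Rptor loss minus that with Tfam loss was -0.52 ± 0.13, and minus that with Cox10 loss it was -0.53 ± 0.13 (limma adjusted p = 0.0167 and 0.0165), of which the first passed in 17 of 18 such fits. The rise of Dusp6 with Rptor loss exceeded the change with Cox10 loss by 0.42 ± 0.12 (limma adjusted p = 0.0469) and passed in 2 of 18. Markers of both tissue layers also moved in the Rptor line: their median log2 change was -0.95, -0.30 and -0.45 for lung epithelium and 0.69, 0.08 and 0.09 for lung mesenchyme in the order Rptor, Tfam and Cox10. Relative to the mesenchymal reference Fgf10 rose by 1.59, 0.89 and 1.04. The part of these markers in the differences was not tested.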

How the results depend on the processing

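Fold changes of the 10 genes, their mean effects and the 5 differences between lines that passed kept their direction under every alternative run. Relative to the epithelial reference, Etv5, Sox9 and Fgfr2, all near 0 there, did not, none of them past the threshold on either side: Etv5 for Rptor (0.10) was at -0.26 without Cdh1 in the reference and at -0.046 with all 11 markers, Sox9 for Tfam (0.02) was at -0.12 without Cdh1, and Fgfr2 for Tfam (-0.01) was at 0.10 without Epcam, 0.015 without Nkx2-1 and 0.011 with all 11 markers. Leaving out a sample put Etv5 for Rptor at -0.025 to 0.23, Sox9 for Tfam at -0.12 to 0.12, Fgfr2 for Tfam at -0.048 to 0.020 and Fgfr2 for Cox10 (0.07) at -0.0050 to 0.15. TMM scaling, scaling to library totals, pseudocounts of 0.1 and 5 and a minimum mean of 50 kept every call of the 10 genes within lines. In the Cox10 line the number of the 10 genes called was 0 with limma as reported, 1 with the replicate block (Etv4, adjusted p = 0.0497, against 0.321% of all genes), 5 with all 18 samples in a single fit (2.12%), 2 with Xist as covariate (0.783%) and 0 to 3 when a sample was left out (0.0201% to 1.68%). The replicate numbers were not taken to pair samples in the Tfam (correlations of -0.312, -0.207 and 0.151) and Cox10 lines (0.447, 0.202 and 0.0488), since not every pair was above 0.1, although all 3 were positive for Cox10. The block changed no call of the 10 genes other than those of Fgf9 in the Rptor line, of Etv4 in the Cox10 line and of the mean effect of Fgf9. Of the listed genes it added Gli1 (adjusted p = 0.0213), Fgf1 and Sftpc in the Tfam line. For the other pathway genes, the count with all 18 samples was 3 for Tfam (2.71% of all genes) and 2 for Cox10 (2.12%), and leaving out a sample gave 1 to 8 and 0 to 3. Relative to the epithelial reference without Cdh1, 5 of 10 genes passed in the Tfam line, against 8 with it. With Cdh1 50.3% of all genes passed, and without it that share was not taken. Leaving out a sample gave 5 to 8 called genes for Rptor (24.1% to 35.7% of all genes) and 5 to 8 for Tfam (2.41% to 7.46%). It gave 1 to 3 genes that differed between the Rptor and Tfam lines and 8 to 9 for the mean effect. Shares of all genes were not taken for these last fits. With all 18 samples Fgf9 passed in the Rptor line (adjusted p = 0.0180) and Spry1 missed in the Tfam line (adjusted p = 0.0857). An epithelial reference of all 11 markers and a mesenchymal one of all 9 were chosen after seeing the data, as were the places per kilobase without a sample, the block and the left-out samples for the genes of the other lists and the gene-by-gene values relative to the epithelial reference. The cause of these changes was not tested. With 3 samples a group, the standard errors of the 10 genes within a line ran from 0.05 to 0.17 on the log2 scale, which limits the changes that could pass.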

Other observations

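Per kilobase of exon, Fgf10 held place 6 of the 10 genes in Rptor control lungs, at 316 ± 41.8 normalised read counts per kilobase (SD, n = 3), and place 2 in Rptor-deficient lungs, at 1154 ± 131, where its range overlapped that of Dusp6 in place 3 (1015 ± 160.5). In the Tfam line it went from place 8 to place 7, or to place 6 without deficient replicate 1 or 2, and its range overlapped that of Etv4 above it. In the Cox10 line it went from place 7 to place 3, at 516 to 822, a range that overlapped Dusp6 above (790.5 to 862) and Spry2 below (494 to 672), and without deficient replicate 3 it was at place 4, at 528 against 583 for Spry2. Fgfr2 was above Fgf10 in control and below it in deficient lungs of the Rptor and Cox10 lines. These places rest on the exon length of Fgfr2, which is uncertain. Etv5 was first in every group, at 3385 ± 75.8 in Rptor control and 1613 ± 56.5 in Rptor-deficient lungs.

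The pattern of Etv4 across the 18 samples, looked at after its values were seen, was closest to that of Asb1 (r = 0.907), Slc7a3 (0.899), Spry2 (0.878), Stk39 (0.873) and Aldh1l2 (0.872), out of 12585 genes. Slc7a3, an amino acid transporter, and Aldh1l2, a mitochondrial folate enzyme, rose by 3.23 and 2.32 on the log2 scale in the Tfam line. They were picked for following Etv4 over these samples, and the effect on Etv4 did not differ between lines past the threshold (limma adjusted p of 0.0782 to 0.977). Among the other 9 genes, Spry1 ranked 18, Fgf10 ranked 80 and Dusp6 ranked 281 by likeness to Etv4.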
